A study of Mus musculus with 6 samples.

Results

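Gene expression was compared between aortas of untreated ApoE-/- mice with atherosclerosis and aortas of non-transgenic B6 mice, with 2 arrays per group. The genes described are those of all probe sets whose signal intensity averaged 100 or more in either group, which were 17358 of the 45037 probe sets of the array other than its 64 controls. Of these probe sets, 15925 carried 1 gene symbol, and they stood for 10470 genes. Each gene was represented by its brightest probe set. The untreated ApoE-/- mice lacked apolipoprotein E in the germline on the C57BL/6J background, were 32–34 weeks old, received no drug, and the label gives atherosclerosis as their disease. The B6 mice were C57BL/6J mice of the same age without a transgene and without treatment. Mice were fed a standard chow that contained cholesterol and, in both of these groups, no added vitamin E. Aortas were taken after perfusion with saline. RNA of 3 aortas was pooled for each array, so the spread between mice is not in the data. The p-values rest on the spread between the 2 pools of each of the 3 groups, shrunk towards a trend over all probe sets. The third group consisted of ApoE-/- mice of the same age whose chow was supplemented with vitamin E. This chow carried 2000 IU/kg of the vitamin, and treatment lasted 7 months. A whole aorta holds intima, media, adventitia and the fat around it. In such bulk RNA, fewer cells of a type and less RNA per cell cannot be told apart.

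Apolipoprotein E sits on remnant lipoproteins and lets the liver clear them from blood. Without it, cholesterol-rich particles stay in the circulation and enter the arterial wall, where macrophages take them up and become foam cells. The lesions that form hold immune cells, smooth muscle cells that have left the contractile state, and newly made matrix. ApoE-/- mice develop such lesions in the aorta without a Western diet, which made them a standard model of atherosclerosis.

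Apoe itself, the targeted gene, had signal intensities of 93.21 and 57.37 in ApoE-/- aortas and of 5209 and 5432 in B6 aortas, which is a log2 fold change of -6.18 (SE 0.21, adjusted p = 2.5e-06), or 72.7-fold. Both arrays of each group thus carried the signal that their labels call for.

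All arrays had been scaled to a target value of 200, so a median log2 fold change near 0 (0.013 over all genes) says little about the groups. Replicate arrays correlated at 0.991 in ApoE-/- and 0.992 in B6 aortas across probe sets. However, the controls added to the RNA before labelling differed between the groups. The poly-A controls dap, lys and phe were 3.28-, 3.56- and 2.99-fold higher on the B6 arrays, whereas the hybridisation controls BioB and Cre were 1.09-fold and 1.17- to 1.23-fold higher. The probe sets for 18S ribosomal RNA were 4.08- to 7.14-fold higher on the B6 arrays. The ratio of the 3′ to the 5′ signal of Gapdh was 1.03 and 1.06 on the ApoE-/- arrays and 1.36 and 1.34 on the B6 arrays. All arrays of a group stood together in these values, so labelling, RNA quality and genotype cannot be told apart in any result below. Genes of neighbouring tissues also moved with the groups. Of the genes tested, 26 of 26 of the liver list, 23 of 27 of stratified epithelium, 19 of 21 of skeletal muscle, 11 of 12 of sympathetic neurons and 17 of 19 of neurons in general were lower in ApoE-/- aortas, while 23 of 25 of cardiac muscle, 11 of 12 of immature thymocytes and 7 of 12 of T cells were higher. Smooth muscle genes, which define the labelled tissue, were bright on all arrays, with Acta2 at 9158 to 11060.

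With an adjusted p under 0.05 taken as a call, 7215 probe sets (41.6%) differed between ApoE-/- and B6 aortas. In ApoE-/- aortas 3792 (21.8%) had a higher and 3423 (19.7%) a lower signal, and the signal intensities of the groups did not overlap in 77.5%. The larger share of higher calls turned with another scaling, to 3309 higher and 3876 lower after median centring and to 3492 and 3622 after quantile normalization. At the level of genes, 21.1% were higher and 21.2% were lower, and these shares are the background for every list below. They hold for the full fit only. Fits with 1 array left out called fewer probe sets over the whole comparison too. Lower counts of a list in those fits are therefore not by themselves a trait of that list. Most of the differences were small. The median size of a called log2 fold change was 0.57, only 1321 calls reached 2-fold, and 4-fold was reached by 100 higher and 134 lower probe sets. Abundant probe sets moved less. Among the 2936 that averaged 1000 or more, 47.6% were called but only 143 by 2-fold, against 40.3% and 1178 of the 14422 dimmer ones. A part of the calls was bound to have a direction. The 1250 probe sets that passed the signal minimum through the ApoE-/- arrays alone gave 729 higher and 0 lower calls, and the 924 that passed through the B6 arrays alone gave 0 higher and 567 lower calls. Among the 15184 that passed in both groups, 3063 were higher and 2856 were lower. Any gene below whose mean is under 100 in a group, such as Cxcl10, Tcf21, Nr4a3 or Apoc4, passed through the other group alone, which fixes the direction of any call.

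**Figure D1:**
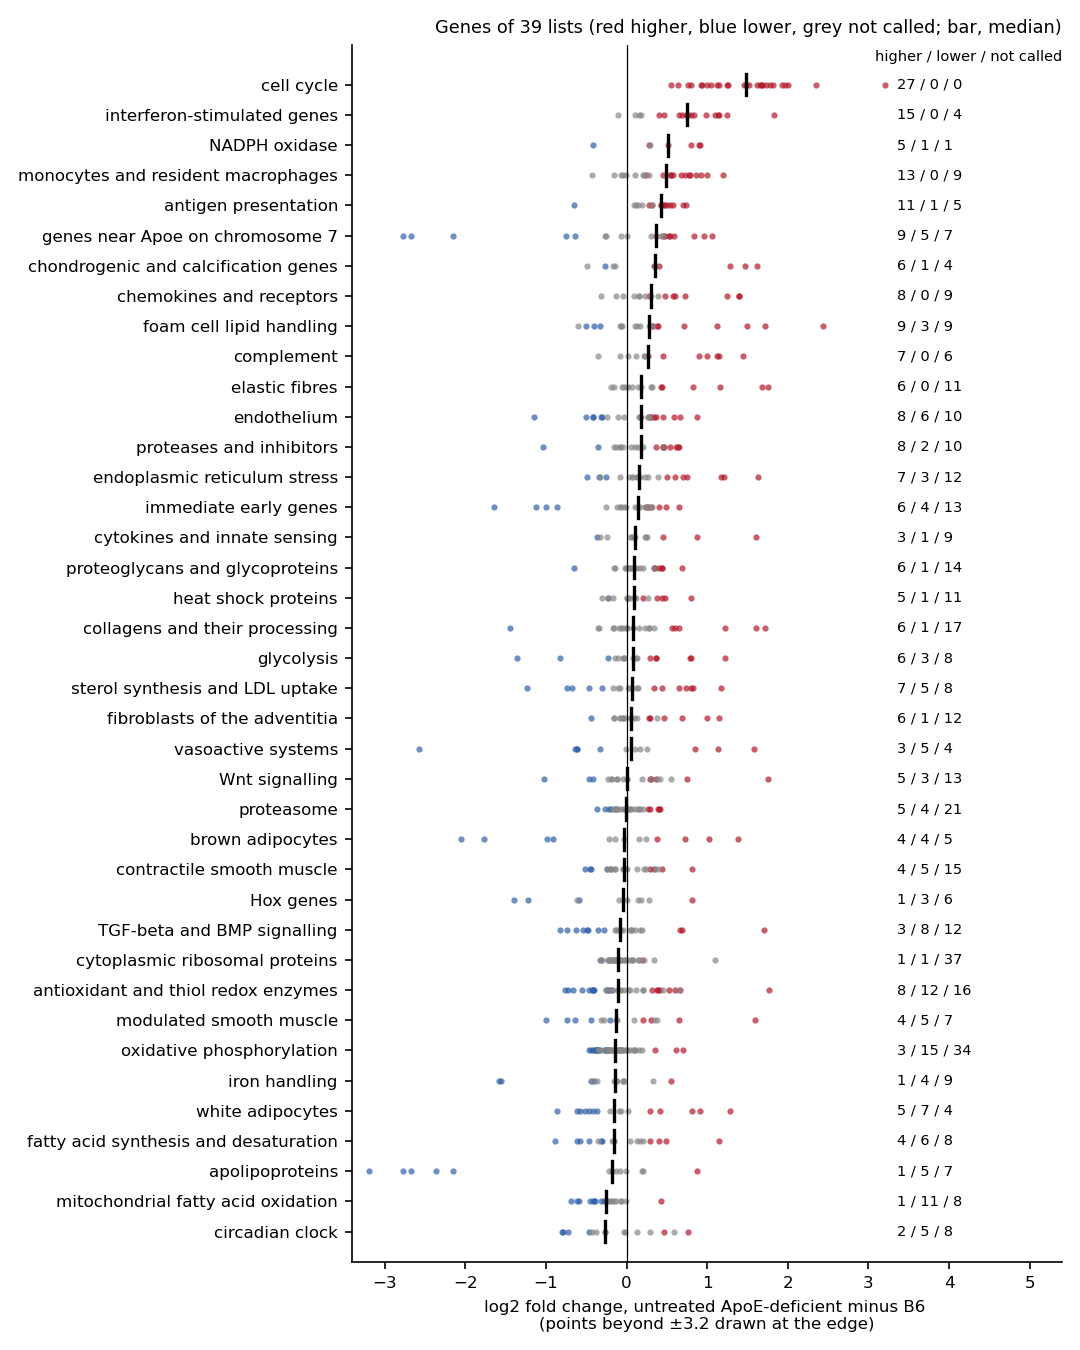
Log2 fold changes of the genes of 39 lists, ApoE-/- minus B6 (x axis), with 1 point per gene, 1 line per list and a bar at the median of the list, red points for higher, blue for lower and grey for genes not called, and values past the range drawn at its edge. Cell cycle genes all lie to the right of 0, interferon-stimulated genes have a median of 0.75, and genes of fatty acid oxidation a median of -0.25.

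Macrophage genes moved one way. Of 22 genes of monocytes and resident macrophages tested, 13 were higher, 0 lower and 9 not called in ApoE-/- aortas, with a median log2 fold change of 0.49. Among the 21 that passed the signal minimum in both groups, 12 were higher, and with any 1 of the 4 arrays left out 11 or 12 of the list were higher. Cd68, a glycoprotein of the lysosomes of phagocytes, had signal intensities of 476.5 and 479.4 in ApoE-/- and of 244.2 and 234.7 in B6 aortas (log2 fold change 0.997, SE 0.08, adjusted p = 0.00011). Lyz2, the lysozyme of myeloid cells, had 7229 and 7513 against 4317 and 4253 (0.78, SE 0.06, adjusted p = 0.00013). Clec7a, the receptor dectin-1 for fungal glucans, had 432.6 and 455.8 against 227.9 and 240.3 (0.92, SE 0.09, adjusted p = 0.00024). In each of these 3 genes both ApoE-/- arrays lay well above both B6 arrays, while the groups did not overlap in 77.5% of all probe sets tested. Adgre1, which encodes the F4/80 antigen, rose from 223.8 and 216.9 to 352.8 and 375 (0.72, SE 0.09, adjusted p = 0.00082). Mpeg1, a pore-forming protein of macrophages, rose from 862.3 and 888.5 to 1484 and 1520 (0.78, SE 0.07, adjusted p = 0.00019). By contrast, Cd14, the co-receptor for endotoxin, had 235.6 and 249.6 against 253.8 and 257.2 and was not called (adjusted p = 0.80). The brightest probe sets of Csf1r, the receptor for the macrophage growth factor, and of Laptm5, a lysosomal protein of blood cells, were not called (log2 fold changes 0.10 and 0.00), whereas other probe sets of both genes were higher. Over all 29 tested probe sets of the list, 19 were higher and 0 lower.

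Genes of foam cell lipid handling were divided. Of 21 tested, 9 were higher, 3 lower and 9 not called, with a median of 0.27, and 6 or 7 were higher with any array left out. The genes that rose most are known from lipid-laden macrophages. Cd5l, a soluble scavenger protein secreted by macrophages, had 745.8 and 799.2 in ApoE-/- against 237.4 and 233.3 in B6 aortas (1.71, SE 0.08, adjusted p = 9.1e-06, 3.28-fold). Gpnmb, a membrane glycoprotein of phagocytes loaded with lipid, had 509.1 and 516.5 against 174.2 and 191.7 (1.49, SE 0.09, adjusted p = 3.3e-05). Itgax, the integrin CD11c, had 253.5 and 280.6 against 113.3 and 133 (1.12, SE 0.13, adjusted p = 0.00056). In each of them both ApoE-/- arrays lay far above both B6 arrays, while the groups did not overlap in 77.5% of all probe sets tested. Mmp12, the macrophage elastase, had 117.8 and 99.35 in ApoE-/- aortas, whereas both B6 arrays were under the floor of 20, so it was at least 5.41-fold higher, and it had passed the signal minimum only through the ApoE-/- arrays. Abcg1, which exports cholesterol from cells, rose from 467.6 and 392.2 to 665.8 and 737.9 (0.71, SE 0.10, adjusted p = 0.0015). Cd36 and Lpl, a scavenger receptor and lipoprotein lipase that adipocytes also hold in large amounts, were lower by 0.33 (adjusted p = 0.0046) and 0.41 (adjusted p = 0.025), and 0 to 2 genes of the list were lower with any array left out.

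Of 13 complement genes tested, 7 were higher, 0 lower and 6 not called (median 0.27), and 5 or 6 were higher with any array left out. The chains of C1q, the recognition molecule of the classical pathway that macrophages make locally, were all higher. C1qa had 1481 and 1467 against 740.9 and 736.3 (0.997, SE 0.06, adjusted p = 3.4e-05), C1qb was higher by 1.11 (SE 0.16, adjusted p = 0.0016) and C1qc by 1.15 (SE 0.07, adjusted p = 3.8e-05). Serping1, the inhibitor of the C1 proteases, had 2277 and 2422 against 2131 and 2198 and was not called (adjusted p = 0.16), nor was the brightest probe set of Clu, or clusterin (adjusted p = 0.47), of which another was higher by 0.41 (adjusted p = 0.002). The NADPH oxidase transfers electrons to oxygen and so makes superoxide. Of its 7 subunits tested, 5 were higher and 1 lower, with a median of 0.52, and 3 or 4 were higher with any array left out. Cyba, the p22phox subunit, had 2028 and 1938 against 1111 and 1021 (0.90, SE 0.07, adjusted p = 0.00012), and Cybb, the catalytic subunit of phagocytes, had 646.8 and 634.8 against 356 and 380.3 (0.80, SE 0.07, adjusted p = 0.00021). Rac2, the small GTPase that activates the enzyme in blood cells, was higher by 0.91 (SE 0.11, adjusted p = 0.00078). The lower one was Nox4, the catalytic subunit of vascular cells, with 222.3 and 188.2 against 276.3 and 269.8 (-0.42, SE 0.12, adjusted p = 0.028), and in 3 of the 4 fits without 1 array it was no longer called.

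**Figure D2:**
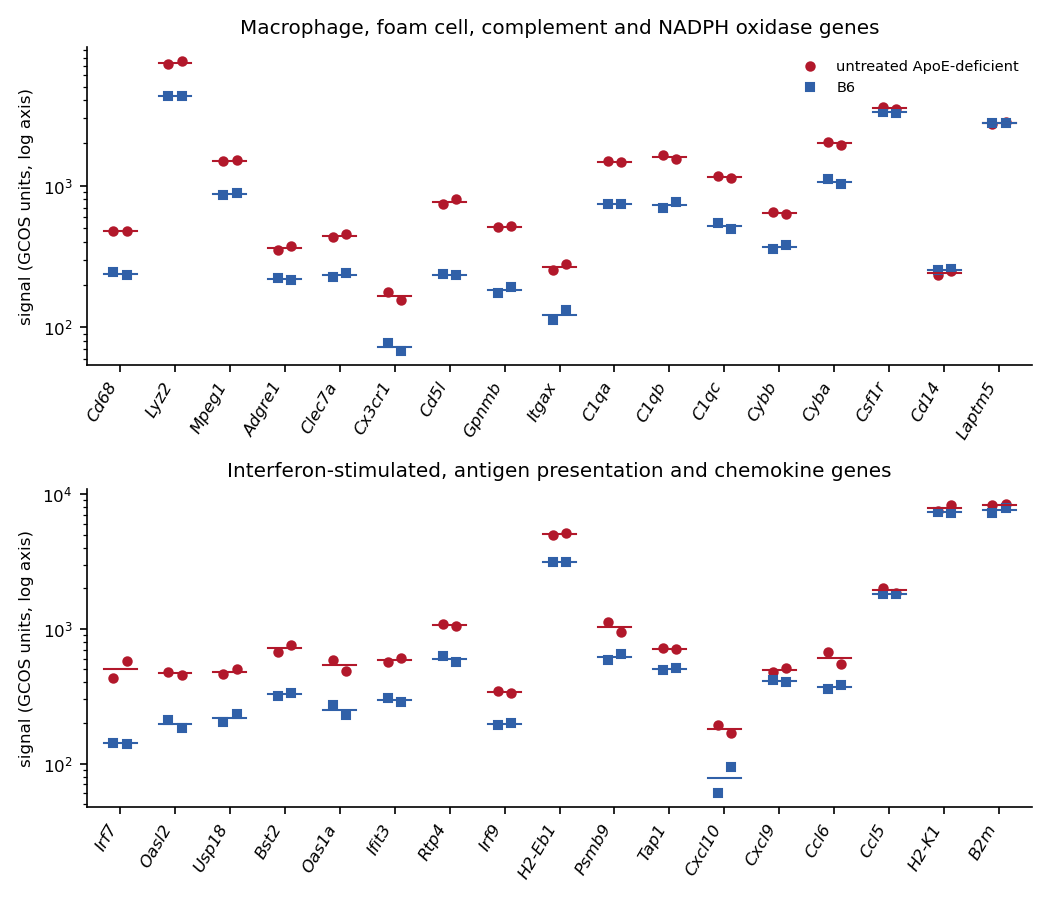
Signal intensities (log axis) of genes of macrophages, foam cells, complement and NADPH oxidase (first panel) and of interferon response, antigen presentation and chemokines (second panel), with 1 point per array and the mean of each group. The ApoE-/- points of Cd68, Cd5l, C1qa, Irf7 and Bst2 all lie above the B6 points.

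Most interferon-stimulated genes of the list were higher. Interferons bind receptors that activate STAT proteins, and these, with IRF9, switch on a set of antiviral genes in nearly every cell type. Of 19 such genes tested, 15 were higher, 0 lower and 4 not called in ApoE-/- aortas, with a median of 0.75. All 19 had passed the signal minimum in both groups, and 14 were higher with any array left out, but 3 or 4 with the methods' t-test after Benjamini-Hochberg adjustment, which called fewer genes in nearly all lists. Irf7, a transcription factor that amplifies the response, had 434.7 and 576.2 against 142.7 and 139.7 (1.83, SE 0.22, adjusted p = 0.00076). Oasl2, a protein of the oligoadenylate synthetase family, had 481.2 and 453.2 against 209.2 and 184.4 (1.25, SE 0.12, adjusted p = 0.00025). Usp18, a protease that removes ISG15 from proteins and damps the receptor, had 465.5 and 499.8 against 204 and 233.7 (1.14, SE 0.10, adjusted p = 0.0002). The groups were thus apart by more than 2-fold in each of them, although the 2 ApoE-/- arrays of Irf7 were far from each other. Bst2, or tetherin, which holds budding viruses at the cell surface, had 673 and 761.2 against 318.6 and 335.1 (1.13, SE 0.09, adjusted p = 9.5e-05). Oas1a, which makes the activator of RNase L, had 589.3 and 485.7 against 272 and 230.5 (1.10, SE 0.15, adjusted p = 0.0012), and Ifit3, a cofactor of the proteins that bind foreign RNA, had 564.6 and 612.1 against 307.2 and 288.4 (0.98, SE 0.10, adjusted p = 0.00026). Ifi35, with 1852 and 1878 against 1737 and 1740, was among the 4 not called (adjusted p = 0.28).

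The promoters of Bst2, Oas1a and Ifit3 are shown because these genes rose together and hold the repeat to which interferon-activated factors are known to bind. The RefSeq promoters of assembly GRCm38.p6 span 250 bases before to 50 after the start of a gene, and the motif searched on both strands, GAAA and GAAA with any 2 bases between, is in capitals.
Bst2, chr8:71537423-71537722, minus strand: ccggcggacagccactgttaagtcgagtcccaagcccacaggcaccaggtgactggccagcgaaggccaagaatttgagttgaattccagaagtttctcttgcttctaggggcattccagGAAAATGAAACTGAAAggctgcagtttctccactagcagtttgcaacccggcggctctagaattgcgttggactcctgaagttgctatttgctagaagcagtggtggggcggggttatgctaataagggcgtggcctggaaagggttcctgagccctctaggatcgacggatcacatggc
Oas1a, chr5:120907476-120907775, minus strand: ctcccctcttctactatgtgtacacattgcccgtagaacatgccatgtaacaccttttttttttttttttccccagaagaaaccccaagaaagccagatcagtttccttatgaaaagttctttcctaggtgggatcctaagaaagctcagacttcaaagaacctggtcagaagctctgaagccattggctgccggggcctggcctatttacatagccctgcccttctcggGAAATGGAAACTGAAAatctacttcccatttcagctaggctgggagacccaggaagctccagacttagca
Ifit3, chr19:34583279-34583578, plus strand: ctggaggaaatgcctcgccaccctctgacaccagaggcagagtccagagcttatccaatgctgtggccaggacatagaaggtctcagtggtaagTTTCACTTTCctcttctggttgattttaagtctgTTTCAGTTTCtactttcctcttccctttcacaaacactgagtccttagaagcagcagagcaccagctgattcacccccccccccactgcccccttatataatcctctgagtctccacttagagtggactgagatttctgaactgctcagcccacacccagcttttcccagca
Each of these promoters held 2 matches, which overlap in Bst2 and in Oas1a. Of the 15 higher genes 12 had a promoter in the table, and 6 of them held the motif, namely Bst2, Ddx58, Gbp3, Ifit1, Ifit3 and Oas1a. Among all genes with such a promoter 3.99% held it. A match is a description of these letters and shows no binding.

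Genes of antigen presentation were mostly higher, by less. Of 17 tested, 11 were higher, 1 lower and 5 not called (median 0.42), but only 5 to 7 were higher with any array left out. H2-Eb1, a chain of the class II molecules that show peptides to helper T cells, had 5022 and 5155 against 3115 and 3137 (0.70, SE 0.07, adjusted p = 0.00026). Psmb9, a catalytic subunit of the immunoproteasome, had 1128 and 946.1 against 590.2 and 649.7 (0.74, SE 0.10, adjusted p = 0.0014), and Tap1, a chain of the peptide transporter, was higher by 0.50 (SE 0.07, adjusted p = 0.0011). The class I heavy chain H2-K1 and its partner B2m, at 7276 to 8530, were not called (adjusted p = 0.55 and 0.15), but other probe sets of H2-K1, whose sequence is shared within a gene family, were higher, by up to 1.97 (adjusted p = 3.5e-05).

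Chemokines attract leukocytes into the wall. Of 17 chemokines and receptors tested, 8 were higher and 0 lower (median 0.30), and 5 or 6 were higher with any array left out. Among those tested in both groups, 5 of 14 were higher. Cxcr4, the receptor for CXCL12, had 382.9 and 396 against 154.2 and 142.6 (1.39, SE 0.09, adjusted p = 4.2e-05). Its ligand Cxcl12 had 1737 and 1722 against 1930 and 1863 and was not called (adjusted p = 0.10), although a dimmer probe set was lower by 0.66 (adjusted p = 0.0021). Ccl6, a chemokine of myeloid cells, had 672.9 and 552.1 against 358.3 and 380.1 (0.72, SE 0.11, adjusted p = 0.002), and Cxcl10, an interferon-induced attractant of T cells, had 192.7 and 168.2 against 60.75 and 94.45 (1.25, SE 0.21, adjusted p = 0.0034). Ccl5 had 2011 and 1861 against 1820 and 1820 and was not called (adjusted p = 0.33). Of 13 cytokines and innate sensors tested, 3 were higher, 1 lower and 9 not called, a share close to the background, and 1 to 3 were higher with any array left out. A further 11 genes of this list stayed under a signal intensity of 100 in both groups and were not tested.

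Lymphoid genes moved beside these immune lists. Of 14 genes of B and plasma cells tested, 12 were higher and 0 lower, and their summed signal intensity was 27790 and 28640 in ApoE-/- against 19450 and 19860 in B6 aortas. Those of T cells summed to 5301 and 5325 against 3503 and 3295, and those of immature thymocytes to 11700 and 11700 against 4587 and 4584. Of 3 neutrophil genes tested, 0 were called, and Mpo and Elane were under 100 in both groups. The part of these cells in the higher interferon, antigen presentation, chemokine and cell cycle genes was not tested. Outside the neighbouring tissue lists, immunoglobulin light chains were among the genes that rose most. Genes of the thymus lists rose by more, such as Rag1 (6.62), Dntt (5.46) and Prss16 (4.39). Each of these passed the signal minimum only in ApoE-/- aortas, and the B6 arrays of Rag1 and Dntt were under the floor of 20. Of 7 genes of thymic epithelium tested, 7 were higher, 4 of which passed in both groups. Igk, the kappa chain, had 1894 and 1877 against 174.3 and 179.6 (3.41, SE 0.07, adjusted p = 2.1e-07), and Igkv6-20, Igkv6-14 and Iglv1 were higher by 3.34, 2.37 and 1.83. Probe sets of such families can bind transcripts of near-identical members, so the segment named is uncertain. Mzb1, a chaperone of antibody-secreting cells, had 1840 and 1891 against 720.5 and 742.2 (1.35, SE 0.06, adjusted p = 8.6e-06).

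Further genes with large rises were mixed in kind. Pglyrp1, a bactericidal protein that binds peptidoglycan, had 674.4 and 623.1 against 98.91 and 109.2 (2.64, SE 0.09, adjusted p = 3.4e-06). Pik3cd, the leukocyte catalytic subunit of phosphoinositide 3-kinase, rose most among the genes named by size of change, which leave out the neighbouring tissue lists and genes with an array under 20, with 3462 and 4062 against 159.3 and 159.5 (4.56, SE 0.10, adjusted p = 3.3e-07), but a further probe set of it rose by only 0.65. The same holds for Fen1, the flap endonuclease of DNA replication (3.81, a further probe set 0.90), and Nrip2, a nuclear receptor cofactor (3.99, a further probe set 0.55, not called). E2f5, a repressor of the E2F family, was higher by 2.75 by its brightest probe set, while its other probe sets gave 0.26 and 0.19 and were not called. The sizes of these 4 rises therefore rest on 1 probe set each. Ccne1, the cyclin that starts DNA replication, had 347.7 and 353.9 against 73.36 and 60.77 (2.39, SE 0.17, adjusted p = 6.4e-05). Among the abundant genes, Lgals3bp, a secreted glycoprotein that binds galectins, had 1748 and 1759 against 714.2 and 645.1 (1.37, SE 0.09, adjusted p = 3.8e-05), and Reg3g, a secreted lectin that kills bacteria at epithelial surfaces, had 1974 and 1910 against 696.5 and 689.9 (1.49, SE 0.06, adjusted p = 4.9e-06).

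Contractile smooth muscle genes were mostly not called. Of 24 tested, 4 were higher, 5 lower and 15 not called, with a median of -0.03, and with any array left out 2 or 3 were higher and 3 lower. Acta2, the actin of the contractile apparatus, had 9158 and 9773 in ApoE-/- and 10850 and 11060 in B6 aortas (-0.21, SE 0.08, adjusted p = 0.066), and a dim probe set of it, at no more than 176.4 on any of these arrays, was lower by 0.67 (adjusted p = 0.0093). Myh11, the smooth muscle myosin heavy chain, had 1685 and 1664 against 1605 and 1792 (adjusted p = 0.86), and Tagln, an actin-binding protein also called SM22, had 4056 and 4322 against 4180 and 4181 (adjusted p = 0.98). Fold changes of Myh11 and Tagln were thus within 2 standard errors of 0. Within the list, Cald1, or caldesmon, which restrains actomyosin, fell from 4162 and 4246 to 2905 and 2957 (-0.52, SE 0.06, adjusted p = 0.00057), and Vcl, or vinculin of adhesion sites, fell from 1847 and 1818 to 1363 and 1323 (-0.45, SE 0.06, adjusted p = 0.001). Csrp1, a LIM protein of the cytoskeleton, rose from 793.4 and 893.3 to 1574 and 1386 (0.81, SE 0.09, adjusted p = 0.00045).

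Genes of the modulated smooth muscle state went both ways, with 4 of 16 higher, 5 lower and 7 not called (median -0.13), and 2 or 3 were higher with any array left out. Klf4, a transcription factor known to repress contractile genes, fell from 1389 and 1370 to 693.9 and 688 (-0.997, SE 0.08, adjusted p = 0.00011), and a further probe set of it fell by 0.62. Myh10, a non-muscle myosin heavy chain, fell from 1302 and 1316 to 766.5 and 807.5 (-0.73, SE 0.06, adjusted p = 0.00015). Pdgfrb, the receptor for PDGF on mural cells, fell from 1694 and 1604 to 1123 and 995 (-0.64, SE 0.09, adjusted p = 0.0016), while a dimmer probe set of it gave 0.25 and was not called. Timp1, an inhibitor of metalloproteinases, moved the other way, from 71.85 and 64.5 to 219.6 and 191 (1.59, SE 0.15, adjusted p = 0.00024), and passed the signal minimum only in ApoE-/- aortas. Vim and Fn1, vimentin and fibronectin, were bright and not called (adjusted p = 0.17 and 0.23). Over all 25 tested probe sets of the list, 8 were higher and 6 lower (median 0.21), so its lean depends on the probe sets counted.

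The endothelial list held 8 higher, 6 lower and 10 not called of 24 genes, or 3 to 5 higher and 3 to 5 lower with any array left out. Sox17, a transcription factor of arterial endothelium, had 186.9 and 167.5 in ApoE-/- against 389.3 and 392.5 in B6 aortas (-1.14, SE 0.14, adjusted p = 0.00085). Vwf, the von Willebrand factor that tethers platelets, had 567.3 and 576.6 against 827.6 and 787.9 (-0.50, SE 0.07, adjusted p = 0.0013). Nos3, the endothelial nitric oxide synthase, had 553.8 and 539 against 549.4 and 567.2 and was not called (adjusted p = 0.81). Both Sox17 and Vwf thus fell while Nos3 was not separated from 0. Vcam1, the adhesion molecule for monocytes, had 744.8 and 848.8 against 407 and 462.6 (0.87, SE 0.19, adjusted p = 0.0091), and the adjusted p was 0.06 without the second ApoE-/- array and 0.075 without the first B6 array. Of 12 vasoactive genes, 3 were higher, 5 lower and 4 not called, and 2 to 4 were lower with any array left out. Npr3, the receptor that clears natriuretic peptides, had 655.3 and 639 against 204 and 231.2 (1.58, SE 0.10, adjusted p = 4.6e-05), and its further probe set rose by 1.23. Tbxa2r, the thromboxane receptor, was higher by 0.84 (SE 0.10, adjusted p = 0.00072). Genes of the angiotensin system went both ways. Ace, the angiotensin-converting enzyme, was higher by 1.13, and its further probe set by 0.94. Over the alternatives the value of Ace ranged from 0.65 to 1.61, and it was not called in all of them. Agtr1a, the main vascular receptor for angiotensin II, had 227.2 and 234.6 against 383 and 328.1 (-0.62, SE 0.11, adjusted p = 0.0045). Agt, the precursor of angiotensin that liver and perivascular fat make, had 25.27 and 6.07 against 114.3 and 157.5 and passed the signal minimum only in B6 aortas, and the liver genes that fell with it are given below.

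**Figure D3:**
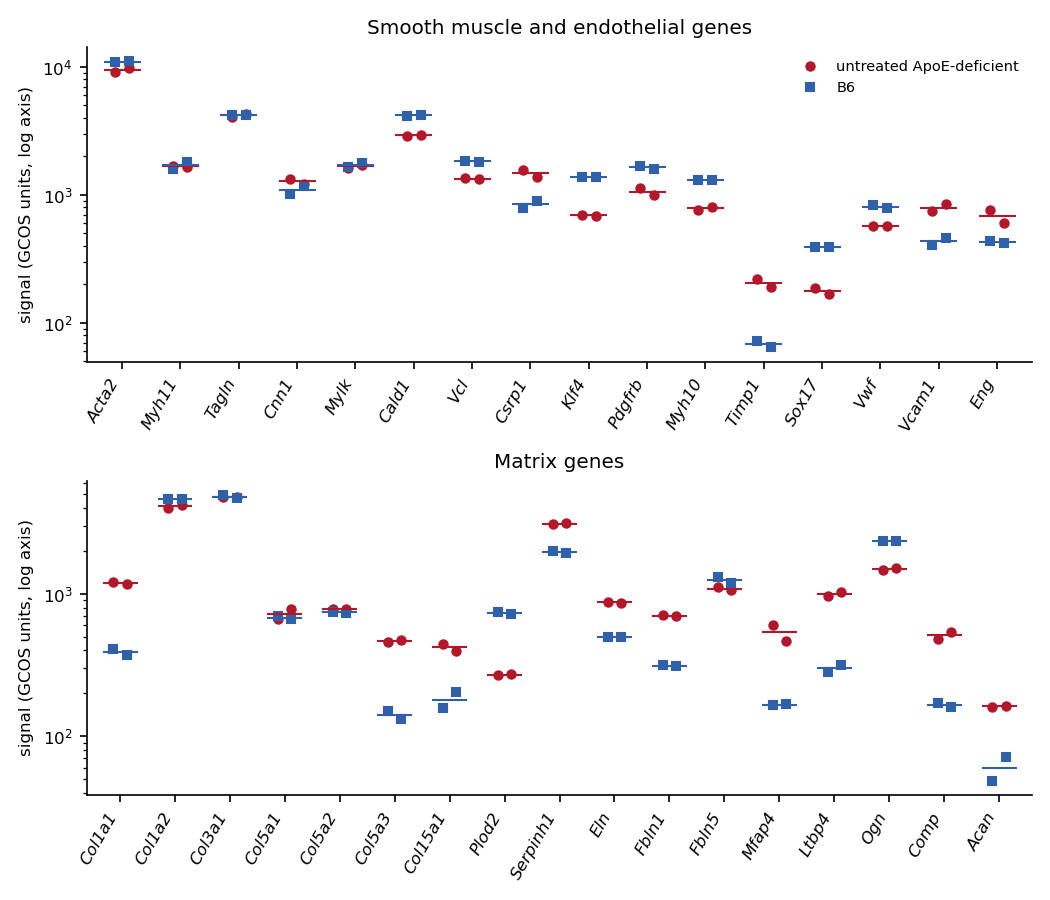
Signal intensities (log axis) of smooth muscle and endothelial genes (first panel) and matrix genes (second panel), with 1 point per array and the mean of each group. Points of Acta2, Myh11 and Tagln of the groups lie close together, whereas Klf4 is lower and Timp1, Col1a1 and Ltbp4 are higher in ApoE-/- aortas.

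Matrix genes were mostly not called, with a few large rises. Of 24 collagens and collagen-processing genes, 6 were higher, 1 lower and 17 not called (median 0.08), and the counts stayed at 6 and 1 with any array left out. Col1a1, a chain of collagen I, had 1212 and 1163 in ApoE-/- against 407 and 374.1 in B6 aortas (1.61, SE 0.07, adjusted p = 9.1e-06), although its further probe set gave 0.29 (adjusted p = 0.044). The partner chain Col1a2 had 4037 and 4232 against 4648 and 4633 (adjusted p = 0.11), and Col3a1, which makes collagen III, had 4826 and 4817 against 4950 and 4693 (adjusted p = 0.99), with a dimmer probe set higher by 0.35 (adjusted p = 0.034). The 2 chains of collagen I were thus not called together. Col5a3, a minor fibrillar chain, had 456.2 and 470.6 against 150.8 and 132.6 (1.71, SE 0.11, adjusted p = 3.7e-05). Col15a1, a basement membrane collagen, had 440.7 and 398.3 against 158.1 and 203.3 (1.22, SE 0.18, adjusted p = 0.0016), and Serpinh1, the collagen chaperone HSP47, had 3080 and 3127 against 2011 and 1950 (0.65, SE 0.06, adjusted p = 0.0002). The lower gene was Plod2, which hydroxylates lysines for cross-links (-1.45, SE 0.08, adjusted p = 2.3e-05), by its brightest probe set only, since a dimmer one gave -0.03.

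Of 17 elastic fibre genes, 6 were higher and 0 lower (median 0.18), and 5 were higher with any array left out. Ltbp4, which binds latent TGF-beta and helps elastin assembly, had 970.7 and 1035 against 283.8 and 313.7 (1.75, SE 0.08, adjusted p = 1.1e-05). Mfap4, a glycoprotein of elastic microfibrils, had 605.5 and 468.1 against 164.1 and 169 (1.68, SE 0.19, adjusted p = 0.00054). Eln, or tropoelastin, had 882.2 and 866.8 against 495.5 and 494.5 (0.82, SE 0.07, adjusted p = 0.00016). These 3 genes, and Fbln1, a fibulin of elastic fibres and basement membranes (1.16, SE 0.07, adjusted p = 4.2e-05), were higher in every ApoE-/- array than in any B6 array. That alone does not set them apart, since the groups did not overlap in 77.5% of all probe sets tested. Of 21 proteoglycans and glycoproteins, 6 were higher and 1 lower, but 1 to 3 were higher with any array left out. Ogn, a small leucine-rich proteoglycan, was the lower one, with 1470 and 1513 against 2353 and 2336 (-0.65, SE 0.09, adjusted p = 0.0016), and Dcn, or decorin, at 6563 to 7446, was not called (adjusted p = 0.12).

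Genes linked with cartilage, some of which calcifying plaques are known to express, were often too dim to test. Of 11 tested, 6 were higher and 1 lower (median 0.35), with 3 to 5 higher when any array was left out, and 16 further genes were under the signal minimum. Comp, the cartilage oligomeric matrix protein, had 478.8 and 541.4 against 171.2 and 160.2 (1.62, SE 0.12, adjusted p = 7.9e-05). Chad, or chondroadherin, had 612.1 and 580.9 against 235.7 and 256.4 (1.28, SE 0.09, adjusted p = 4.9e-05), and Acan, the proteoglycan aggrecan, had 161.3 and 163.2 against 48.35 and 70.81 (1.47, SE 0.20, adjusted p = 0.0013) and passed the signal minimum only in ApoE-/- aortas. In all 3 the groups lay more than 2-fold apart. Of 20 proteases and inhibitors, 8 were higher and 2 lower, with 6 higher when any array was left out. Lysosomal cathepsins led the higher genes. Ctsz had 4007 and 3998 against 2579 and 2532 (0.65, SE 0.06, adjusted p = 0.00018), and Ctss, the cathepsin of antigen-presenting cells, rose by 0.53 (SE 0.06, adjusted p = 0.00055), whereas the brightest probe set of Ctsb, at 7289 to 7857, was not called (adjusted p = 0.74) and others were higher by 0.71 (adjusted p = 0.00019) and 0.31 (adjusted p = 0.014). Timp4, an inhibitor of metalloproteinases in heart and fat, fell from 981.1 and 926 to 467.8 and 460.6 (-1.04, SE 0.07, adjusted p = 4.9e-05), while its further probe set gave -0.45 and was not called.

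Of 23 genes of TGF-beta and BMP signalling, 3 were higher, 8 lower and 12 not called (median -0.09), and 5 or 6 were lower with any array left out. Tgfb1, the ligand, rose from 143.2 and 183.6 to 508.7 and 547.7 (1.70, SE 0.13, adjusted p = 9.8e-05). Bmpr2, a receptor for BMPs, fell from 2012 and 1965 to 1401 and 1327 (-0.54, SE 0.06, adjusted p = 0.00052), and Fst, or follistatin, a trap for activin, fell by 0.83 (SE 0.17, adjusted p = 0.0065). Wnt genes were near the background, with 5 of 21 higher and 3 lower, and 2 or 3 were higher and 1 or 2 lower with any array left out. Fzd4, a receptor for Wnts and norrin, fell from 1729 and 1716 to 832.1 and 864.2 (-1.02, SE 0.07, adjusted p = 4.9e-05), and its further probe set fell by 0.32. Wif1, a secreted inhibitor of Wnts, was at 35.58 and 38.61 in B6 aortas and at 120.5 and 128.8 in ApoE-/- aortas, and Dkk3, a secreted protein of the Dickkopf family, rose by 0.75 (SE 0.09, adjusted p = 0.00061). Hox genes, whose expression marks position along the body axis, were dim. Of 10 tested, 1 was higher and 3 lower, or 0 or 1 and 2 or 3 with any array left out, and Hoxc8 had 115.4 and 109 in ApoE-/- against 261.7 and 264 in B6 aortas (-1.23, SE 0.13, adjusted p = 0.00038). Hoxa9 had 65.7 and 67.79 against 193.6 and 158.5 and passed the signal minimum only in B6 aortas.

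Adventitial fibroblast genes held 6 higher, 1 lower and 12 not called of 19 (median 0.06), with 2 to 4 higher when any array was left out. Thy1, a surface glycoprotein of fibroblasts that thymocytes also carry, had 2539 and 2840 against 1371 and 1329 (0.99, SE 0.08, adjusted p = 9.9e-05), and the thymocyte genes that rose with it are given above. Tcf21, a transcription factor of mesenchymal cells, had 200.2 and 212.3 against 95.67 and 91.26 (1.14, SE 0.13, adjusted p = 0.00049).

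Lipid metabolism changed gene by gene. Of 20 genes of sterol synthesis and LDL uptake, 7 were higher, 5 lower and 8 not called (median 0.06), so the list as a whole was centred near 0, and 5 to 7 were higher and 3 or 4 lower with any array left out. Fdft1, the squalene synthase that commits precursors to sterols, fell from 3603 and 3537 to 1578 and 1448 (-1.24, SE 0.07, adjusted p = 2.5e-05), and Hmgcs1, an early enzyme of the pathway, fell from 5030 and 4885 to 3154 and 3065 (-0.67, SE 0.06, adjusted p = 0.0002). Every further tested probe set of both genes was lower too. Srebf2, the transcription factor that drives the pathway, rose from 195.2 and 175.7 to 437.5 and 400.2 (1.18, SE 0.11, adjusted p = 0.00019), and Dhcr7, the last enzyme before cholesterol, rose by 0.80 (SE 0.08, adjusted p = 0.00039). Of 18 genes of fatty acid synthesis, 4 were higher and 6 lower, or 2 or 3 and 3 to 6 with any array left out. Scd2, a desaturase, rose from 2544 and 2593 to 5680 and 5674 (1.14, SE 0.06, adjusted p = 1.6e-05), and Gpam, which starts triglyceride synthesis, fell from 6051 and 7074 to 3607 and 3496 (-0.88, SE 0.09, adjusted p = 0.00037). Fasn, the fatty acid synthase, was not called at 11150 to 13290 (adjusted p = 0.30). Over all 32 tested probe sets of fatty acid synthesis, 13 were higher and 8 lower (median 0.15), against a median of -0.15 over its genes.

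Genes of the fat around the vessel were bright in all arrays, as Adipoq, or adiponectin, shows with 7665 and 7684 in ApoE-/- and 10490 and 11410 in B6 aortas (-0.51, SE 0.07, adjusted p = 0.0016). Of 16 white adipocyte genes, 5 were higher and 7 lower, and 4 or 5 were lower with any array left out. Lep, or leptin, rose from 160.5 and 150.1 to 353.3 and 406.5 (1.29, SE 0.12, adjusted p = 0.00018), whereas Retn, or resistin, fell from 3121 and 3147 to 1764 and 1680 (-0.86, SE 0.09, adjusted p = 0.00036) and Pparg, the master factor of adipocytes, fell by 0.62 (SE 0.06, adjusted p = 0.00024). Adipokines thus moved in opposite directions. Of 13 brown adipocyte genes, 4 were higher and 4 lower (median -0.03). Over all 22 tested probe sets of these genes, 6 were higher and 11 lower (median -0.31). Dio2, the deiodinase that activates thyroid hormone in brown fat, fell from 831 and 768.8 to 241.4 and 226.5 (-1.77, SE 0.09, adjusted p = 1.2e-05), and Ppara, a nuclear receptor for fatty acids, fell from 1583 and 1587 to 814.7 and 790.1 (-0.98, SE 0.06, adjusted p = 3.3e-05). Elovl3, an elongase of brown fat, rose from 645.9 and 618.6 to 1269 and 1293 (1.02, SE 0.07, adjusted p = 6e-05), and Acot11, a thioesterase induced in cold-exposed brown fat, rose from 1154 and 1204 to 2994 and 3159 (1.38, SE 0.07, adjusted p = 1.6e-05).

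Genes of mitochondrial fatty acid oxidation leaned down, with 1 of 20 higher, 11 lower and 8 not called (median -0.25), although only 3 to 6 were lower with any array left out. Pdk4, a kinase that spares glucose, fell from 4416 and 4597 to 2907 and 2991 (-0.61, SE 0.06, adjusted p = 0.00037), and Etfdh, which passes electrons from fatty acids to ubiquinone, fell from 3327 and 3294 to 2135 and 2257 (-0.59, SE 0.06, adjusted p = 0.00037). The higher gene was Hadha, a subunit of the trifunctional protein, with 4440 and 4368 against 3301 and 3245 (0.43, SE 0.08, adjusted p = 0.0039). Of 52 subunits of oxidative phosphorylation, 3 were higher, 15 lower and 34 not called (median -0.14), and 2 or 3 were lower with any array left out but 29 in a fit of the 4 arrays alone. Of 17 glycolytic genes, 6 were higher and 3 lower, or 4 or 5 and 2 with any array left out. Pfkl, the phosphofructokinase of liver type, rose from 2166 and 2127 to 4963 and 5027 (1.22, SE 0.07, adjusted p = 3.2e-05), and Aldoc, the aldolase of brain, fell from 463.1 and 465.5 to 170.6 and 191.6 (-1.36, SE 0.12, adjusted p = 0.00015). The cardiac and skeletal muscle genes given above, whose tissues are rich in mitochondria, moved in opposite directions, and their part in these lists was not tested.

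Antioxidant and thiol redox enzymes were divided, with 8 of 36 higher, 12 lower and 16 not called (median -0.11), and 4 to 8 higher and 7 or 8 lower with any array left out. Sod3, the superoxide dismutase of the extracellular space, rose from 467.9 and 481.8 to 1631 and 1595 (1.76, SE 0.06, adjusted p = 3.2e-06, 3.40-fold), and its further probe set rose by 2.17. Gclc, the catalytic subunit that limits glutathione synthesis, fell from 918.3 and 855.6 to 517.6 and 528.2 (-0.76, SE 0.07, adjusted p = 0.00027), its further probe set fell by 0.80, and its partner Gclm fell by 0.55 (SE 0.09, adjusted p = 0.0031). Both subunits of that enzyme were therefore lower. Mt1, a metallothionein, fell from 4996 and 4836 to 3168 and 3014 (-0.67, SE 0.07, adjusted p = 0.00029). Genes of endoplasmic reticulum stress held 7 higher, 3 lower and 12 not called of 22, with 6 higher and 0 or 1 lower when any array was left out. Pdia4, a protein disulfide isomerase, rose from 145.4 and 143.6 to 451.6 and 440.4 (1.63, SE 0.09, adjusted p = 2.6e-05), and Edem1, which hands misfolded glycoproteins over for degradation, rose from 364.4 and 417.1 to 922.9 and 878.5 (1.21, SE 0.08, adjusted p = 5.8e-05). Hspa5, the chaperone BiP, at 4407 to 4892, was not called (adjusted p = 0.38).

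Orphan receptors of the Nr4a family, which respond within minutes to many stimuli, were all lower. Nr4a1 had 448.9 and 484.6 in ApoE-/- against 836.3 and 867.1 in B6 aortas (-0.87, SE 0.07, adjusted p = 0.00014), Nr4a2 fell by 0.99 (SE 0.11, adjusted p = 0.00052), and Nr4a3 had 74.84 and 72.97 against 251.4 and 214 (-1.65, SE 0.18, adjusted p = 0.00043). The immediate early list as a whole held 6 higher and 4 lower of 23, with 2 to 5 higher when any array was left out. Of 15 clock genes, 2 were higher and 5 lower (median -0.27), or 0 or 1 and 4 or 5 with any array left out. Hlf, a transcription factor of the clock output, fell from 826.8 and 874.6 to 500.2 and 477.7 (-0.80, SE 0.07, adjusted p = 0.00022), and Dbp, a related factor with a strong daily rhythm, fell by 0.46 by its brightest probe set (SE 0.08, adjusted p = 0.0037), while another was higher by 0.40 (adjusted p = 0.0036), so its direction is unsettled. The hour of tissue collection is not given in the sources used here, so its part in clock and immediate early genes was not tested. Heat shock proteins held 5 higher and 1 lower of 17, with 2 or 3 higher when any array was left out. Of 39 ribosomal proteins, 1 was higher and 1 lower, but 4 were higher and 23 lower in a fit of the 4 arrays alone. Of 30 proteasome subunits 5 were higher and 4 lower, and with any array left out 0 were lower.

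Cell cycle genes had the highest median of the 39 lists drawn above. All 27 genes tested were higher in ApoE-/- aortas, with a median of 1.48, and 20 of them reached 2-fold. Of these, 18 had passed the signal minimum in both groups, with a median of 1.25, and 25 or 26 of the 27 were higher with any array left out. All 44 tested probe sets of the list were higher. Top2a, the topoisomerase that untangles chromosomes before division, had 764.8 and 767.8 against 210 and 182.1 (1.97, SE 0.09, adjusted p = 9e-06). Mki67, the proliferation antigen Ki-67, had 1170 and 1028 against 345 and 339.6 (1.68, SE 0.08, adjusted p = 1e-05), and Rrm2, a subunit of the reductase that supplies deoxynucleotides, had 886.8 and 849.7 against 237.1 and 221.4 (1.92, SE 0.08, adjusted p = 4.9e-06). In each of them the groups lay more than 2-fold apart. Cdk1, the kinase that drives mitosis, had 335.9 and 286.3 against 123.4 and 71.17 (1.73, SE 0.24, adjusted p = 0.0012), and Ccnb2, one of its cyclins, had 313 and 289.8 against 112.9 and 102.7 (1.48, SE 0.11, adjusted p = 6.9e-05). Pcna, the sliding clamp of replication, which non-dividing cells use in repair, moved less, with 2311 and 2367 against 1646 and 1555 (0.55, SE 0.07, adjusted p = 0.001). Immature thymocytes divide rapidly, and their marker genes rose with this list, with a median of 2.52 over 12 genes, of 1.56 over the 6 that passed the signal minimum in both groups, and summed signal intensities of 11700 and 11700 against 4587 and 4584. Their part in the cell cycle genes was not tested.

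The promoters of Top2a, Cdk1 and Ccnb2 are shown because these genes rose together and mitotic genes are known for CHR elements and CCAAT boxes. In the same RefSeq promoters, TTTGAA and CCAAT, searched on both strands, are in capitals.
Top2a, chr11:99024140-99024439, minus strand: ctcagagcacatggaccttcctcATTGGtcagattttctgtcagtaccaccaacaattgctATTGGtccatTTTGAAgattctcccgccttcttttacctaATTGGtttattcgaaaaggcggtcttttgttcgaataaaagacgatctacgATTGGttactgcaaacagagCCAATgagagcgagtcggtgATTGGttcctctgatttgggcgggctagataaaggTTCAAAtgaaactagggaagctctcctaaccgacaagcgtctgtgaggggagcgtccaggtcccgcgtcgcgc
Cdk1, chr10:69352863-69353162, minus strand: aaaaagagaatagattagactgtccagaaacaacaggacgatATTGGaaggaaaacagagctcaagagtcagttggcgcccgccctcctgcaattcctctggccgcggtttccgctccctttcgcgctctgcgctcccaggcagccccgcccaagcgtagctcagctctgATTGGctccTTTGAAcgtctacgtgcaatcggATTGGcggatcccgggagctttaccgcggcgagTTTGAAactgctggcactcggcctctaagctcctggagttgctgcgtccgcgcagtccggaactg
Ccnb2, chr9:70421505-70421804, minus strand: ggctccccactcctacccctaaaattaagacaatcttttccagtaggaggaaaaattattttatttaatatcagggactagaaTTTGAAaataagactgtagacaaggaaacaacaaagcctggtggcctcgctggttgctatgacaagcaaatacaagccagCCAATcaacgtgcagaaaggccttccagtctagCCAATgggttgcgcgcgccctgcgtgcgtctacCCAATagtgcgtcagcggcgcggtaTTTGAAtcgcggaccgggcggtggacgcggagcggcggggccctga
Top2a held 2 matches of TTTGAA and 6 of CCAAT, and Cdk1 and Ccnb2 held 2 and 3 each. Of the 27 higher genes 23 had a promoter in the table. Of these, 13 held TTTGAA and 20 held CCAAT, whereas 20.2% and 41.1% of all genes with a promoter held them.

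Outside the neighbouring tissue lists, the largest falls after that of Apoe were mostly those of further genes that the liver is known to express. Genes of the liver list itself fell by more, such as Ambp (-5.06) and Alb (-4.57). Bhmt, which remethylates homocysteine, had 53.96 and 38.04 in ApoE-/- against 806 and 792.5 in B6 aortas (-4.14, SE 0.18, adjusted p = 8.6e-06). Plg, or plasminogen, had 29.01 and 37.73 against 532.5 and 530.3 (-4.01, SE 0.18, adjusted p = 9.3e-06), and Hpd, an enzyme of tyrosine breakdown, had 81.58 and 79.41 against 1056 and 1042 (-3.70, SE 0.10, adjusted p = 8.5e-07). Mmd2, Serpina1b, Gnmt, Cyp2c50, Pzp and Ugt2b36 had log2 fold changes of -3.68, -3.64, -3.60, -3.60, -3.58 and -3.15, with adjusted p values of at most 0.00021. Serpina1b is a plasma protease inhibitor, Gnmt a methyltransferase and Cyp2c50 a cytochrome P450. By contrast Uroc1, an enzyme of histidine breakdown that is also known from liver, rose from 32.61 and 36.46 to 192.1 and 161.6 (2.35, SE 0.18, adjusted p = 9.1e-05), and it passed the signal minimum only in ApoE-/- aortas. All 26 genes of the liver list tested fell, with a median of -3.76, and their summed signal intensity was 5700 and 5785 against 42340 and 42870. Only 11 of them had passed the signal minimum in both groups, and all 11 were lower. Hamp, the liver hormone hepcidin that limits iron release and that the heart also makes, had 495.6 and 527.7 against 1402 and 1608 (-1.55, SE 0.09, adjusted p = 2.3e-05). Tfr2, the transferrin receptor of hepatocytes, had 60.21 and 75.2 against 195.1 and 207.9 (-1.58, SE 0.19, adjusted p = 0.00066), with a further probe set at -0.33 that was not called. Slc27a2, a fatty acid transporter of liver and kidney, had 352.3 and 353.1 against 1430 and 1489 (-2.05, SE 0.08, adjusted p = 4.9e-06). The part of liver tissue in the falls of these genes was not tested. Among abundant genes, Ada, the adenosine deaminase, which squamous epithelium of the upper gut holds in large amounts, fell from 3072 and 3091 to 992.6 and 943.9 (-1.67, SE 0.06, adjusted p = 3.6e-06). The cornified envelope gene Lce3a fell from 4064 and 3891 to 1202 and 1070, and Lce3f, Aldh3a1 and Fam25c fell by 1.65, 1.62 and 1.55, beside the 23 of 27 genes of stratified epithelium that fell.

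Genes that flank Apoe on chromosome 7 were taken in the order of GRCm38.p6, with 20 tested genes on each side. Of these 40 genes, 16 were higher, 8 lower and 16 not called, with a median of 0.33, while of the 779 tested genes of chromosome 7, 218 were higher and 159 lower with a median of 0.07. The neighbouring apolipoprotein genes were lower. Apoc1, whose protein travels on lipoproteins and inhibits their uptake, had 371.3 and 393.6 against 2745 and 2501 (-2.78, SE 0.08, adjusted p = 1.2e-06). Apoc4 had 42.17 and 58.8 against 305.2 and 333.2 (-2.68, SE 0.28, adjusted p = 0.0004), and Apoc2, the activator of lipoprotein lipase, had 31.73 and 15.56 against 131.2 and 94.86 (-2.15, SE 0.33, adjusted p = 0.002). These 3 genes are also known as liver genes, and they fell beside the liver list. Tomm40, the import channel of the outer mitochondrial membrane, which lies on the other side of Apoe, rose from 298 and 267 to 546.9 and 554.6 (0.97, SE 0.09, adjusted p = 0.00017). Bcl3, a cofactor of NF-kappaB, rose from 180.2 and 185.3 to 318.9 and 333 (0.83, SE 0.09, adjusted p = 0.00052), and Clptm1, a membrane protein, rose by 0.53 (SE 0.08, adjusted p = 0.0022). Whether the cause of these differences lies in the targeted locus was not tested.

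**Figure D4:**
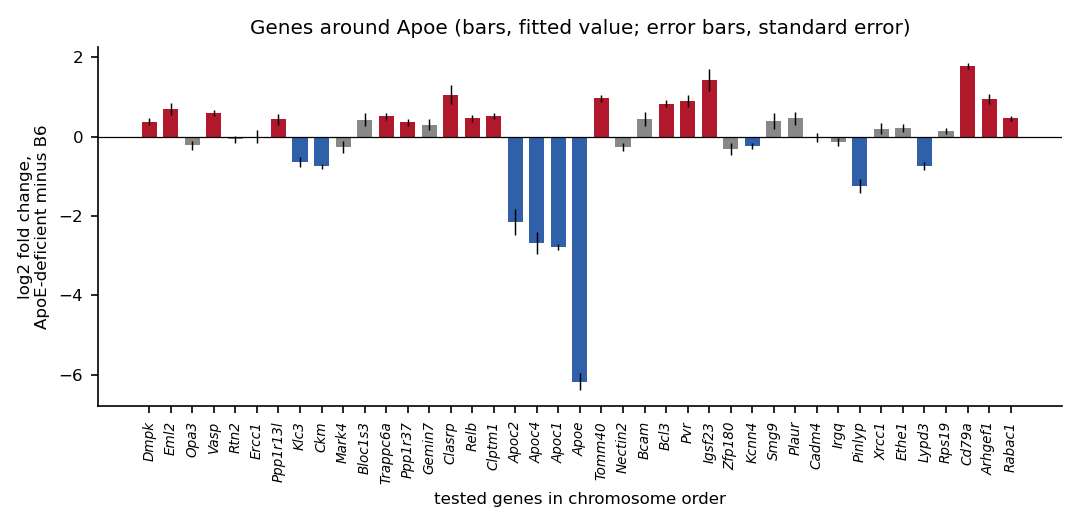
Log2 fold change, ApoE-/- minus B6 (y axis), of Apoe and 20 tested genes on each side of it in chromosome order (x axis), with error bars of 1 standard error. Apoe reaches -6.18 and Apoc1 -2.78, while Tomm40 lies at 0.97.

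How far a gene's value depended on its probe set was seen in the 3688 genes with over 1 tested probe set. For the 2 brightest probe sets of a gene, both were called in 796 genes, 1 in 1502 and neither in 1390. Where both were called, 686 genes had them in the same direction and 110 (13.8%) in opposite directions. Among the 143 genes with both called and the brightest at least 2-fold, 3 were opposite. Myh9, a non-muscle myosin, was one of the genes with opposite calls among its probe sets, at -0.95 and 0.99, and its brightest probe set was not called (0.16). Fabp4, the fatty acid binding protein of adipocytes, had a brightest probe set that was not called (-0.21) and others at 0.73 and -1.76. Where both were called, large changes of the brightest probe set were thus seldom opposed by the next, while small ones were less settled. This leaves out large changes whose next probe set was not called, such as those of E2f5 and Nrip2. Over all probe sets, 213 of the 1063 genes with over 1 called probe set had calls in opposite directions.

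**Figure D5:**
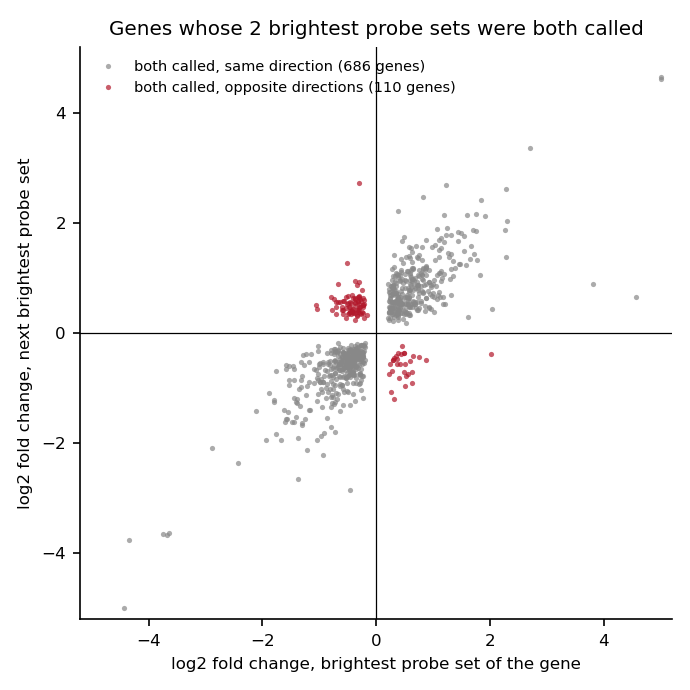
Log2 fold change, ApoE-/- minus B6, of the brightest (x axis) and the next brightest (y axis) probe set of the genes in which both were called, 1 point per gene. Of 796 genes, 686 lie in the quadrants where both probe sets agree in direction and 110 in the others.

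In vitamin E-treated ApoE-/- aortas, which carry the same deletion and received vitamin E for 7 months, Apoe had 40.47 and 45.32. For genes that differed between ApoE-/- and B6 aortas, the vitamin E arrays are given side by side with the values above and no comparison is made. The genes below are examples, all of them higher in ApoE-/- than in B6 aortas, and do not stand for the other genes. Control values of the vitamin E arrays are not given. Gpnmb had 401.6 and 420.8, Cd68 413.2 and 413.9 and Mmp12 58.55 and 56.67. Sod3 had 987.4 and 1027 and Npr3 318.6 and 362.4. In Col1a1 the signal intensities were 730.9 and 715 and in Ltbp4 744.4 and 794.9.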

How the data were processed

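RNA of 3 pooled aortas per array was hybridised to Affymetrix MG430 2.0 arrays, 2 per group. The authors computed a signal intensity per probe set and array with GCOS, scaled each array to a target value of 200 and deposited these intensities on a linear scale. Present calls were left out, and the captopril arrays are not analysed here. Precision is limited by how few arrays there are.

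Of 45101 probe sets, 34945 carried 1 gene symbol, 932 several and 9160 none in the platform annotation. Of the former, 34741 matched a gene of GRCm38.p6, which served for names, chromosome order and promoters. Values below 20 were raised to 20 before log2 transformation. All 6 arrays (3 groups, which share the estimate of spread) entered 1 limma fit (version 3.58.1, R 4.3.3) of group means, whose variances were shrunk towards a trend over intensity, with 3 residual and 4.4 prior degrees of freedom. The p values of limma were adjusted by Benjamini-Hochberg over 17358 probe sets. Exact permutation of 2 arrays against 2 cannot go below a two-sided p of 0.333 and was not used. Tables and figures were made with Python 3.11.15, numpy 2.4.6, pandas 2.3.3 and matplotlib 3.10.9. Scripts were tested on simulated data.

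Genes were named by rule: 10 rises and 10 falls, the largest among called genes with separate groups, all 4 arrays at 20 or more and no place in the 11 neighbouring tissue lists; as many among probe sets that averaged 1000 or more; and up to 4 genes per list (the 2 brightest and the 2 with the largest called change). RIKEN, Gm and accession-only names were left out. Further genes were chosen after their values were seen. The comparison, the lists and the tests were chosen with earlier results of these data known. Lists are described by counts and medians without a test of the list.

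Alternatives were another scaling (median centring, quantile normalization), floors of 50 and 1, other signal filters or none, no intensity trend, only the 2 groups compared, a block for the replicate number, each array left out in turn, 1 probe set per gene, and the methods' t-test with their thresholds (p of at most 0.01 and at least 2-fold). Leaving out genes of neighbouring tissues and B cells, and counting all probe sets of a list, were added after seeing the data.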

Additional observations from a re-analysis of the deposited data

How the results depend on the processing

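Of 306 genes followed, 242 were called. There were 17 alternatives that give a value per gene (other thresholds and the count without genes of neighbouring tissues give none). In 0 of 5196 values did a gene called in the report or in the alternative turn direction. Much of this was fixed in advance. The t-tests, the other signal filters or none, and the fit without a trend keep the fold change of the report. So do the fit of the 2 groups alone, the replicate block and 1 probe set per gene. Only scaling, floors and arrays left out could turn a direction. Genes called in neither could change sign, such as Aldoa (-0.11, with a range of -0.18 to 0.07). Of all values, 4686 were on the same side of the threshold, 457 lost the call and 53 gained it. Without the signal filter 65 lost it and the calls were 4494 (2236 higher, 2258 lower) of 45037 probe sets, since more probe sets share the adjustment. With 1 array left out, 33 to 43 genes lost it, and the calls ranged from 4272 to 4601 (2275 to 2366 higher, 1945 to 2235 lower), where the lone array is assumed to vary like the other groups. With 1 probe set per gene there were 4581 calls (2289 higher, 2292 lower, 794 at least 2-fold). The methods' t-test gave, after Benjamini-Hochberg adjustment, 2239 calls on log2 signals (1043 higher, 1196 lower, 642 at least 2-fold) and 2271 on linear signals (1080, 1191 and 665), under which 109 and 108 of the followed genes lost their call. On log2 signals it called 13 cell cycle, 7 macrophage, 3 antigen presentation and 3 interferon-stimulated genes higher, against 27, 13, 11 and 15 in the report, and in most other lists it called fewer genes as well. At their thresholds it gave 768 (350 higher, 418 lower) and 773 (363 and 410). Without genes of neighbouring tissues and B cells, there were 6964 calls, 1154 of them at least 2-fold. Median centring turned the split of calls to 3309 higher and 3876 lower, and quantile normalization to 3492 and 3622. Scaling, floors, trend and the fit on the 2 groups alone kept these counts within 1.5 times. In the lists of contractile smooth muscle, endothelium, vasoactive systems, Wnt, fatty acid synthesis, oxidative phosphorylation, proteasome, antioxidant and immediate early genes, and genes near Apoe, the more frequent direction turned under at least 1 alternative, and the cause was not tested. The count over all probe sets of a list is not among these alternatives. It turned the more frequent direction for modulated smooth muscle and fatty acid synthesis.

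Replicate numbers are only names: the deviations of same-numbered ApoE-/- and B6 arrays correlated at 0.059. With the replicate number as a block the calls were 6819 (3604 higher, 3215 lower, 1324 at least 2-fold), and 2 genes lost their call.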
